A study of Mus musculus with 7 samples.

Results

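Of 77136 stretches of open chromatin found in 7 mouse libraries, 3729 (4.83%) lay under a peak in both first molars and in none of the other 5 libraries. These molar-only regions are 11.3% of the 32970 regions that the molars shared. The members were selected on measured values, the presence and −log10 p of peaks. The 38000 peaks with the best −log10 p on chromosomes 1 to 19 were taken from each list, overlapping peaks were merged across libraries, and regions with a peak in the lower and the upper molar alone were kept. Peak presence, signal and rank are given below as a description, and only position relative to genes, which the choice did not use, is compared with an interval.

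Omni-ATAC, an assay in which a transposase inserts adapters into DNA that nucleosomes leave exposed, was applied to mouse tissue of 5 groups. The molar groups were whole lower first molar and whole upper first molar at postnatal day 2, with 1 library each. Whole lower incisor at postnatal day 2 also had 1 library. Sox2-positive cells, which the labels call dental epithelial stem cells (DESC), came from the labial cervical loop of postnatal day 2 lower incisors and were sorted by fluorescence in 2 libraries from a Sox2-GFP line, in which GFP follows the endogenous Sox2 promoter. Ectoderm of the first pharyngeal arches at embryonic day 11.5, lifted from its mesenchyme after Dispase II, had 2 libraries. No genotype, strain or sex is given for the other tissues, nor whether replicates came from separate animals or from pools. With 1 library per molar there is no replicate check of either molar, although the rule asks for the same region in both teeth.

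A whole tooth germ at this age holds enamel organ epithelium, dental papilla and odontoblasts, follicle, vessels, nerves and blood cells. In a bulk library, fewer cells of a type and less open chromatin per cell cannot be told apart. Molars form their cusps through enamel knots, transient epithelial signalling centres that secrete SHH, BMPs, FGFs and WNTs, and they stop growing once roots form. The mouse incisor has no cusps, keeps a stem cell niche in its cervical loops and grows throughout life. In the jaw, the homeobox gene Barx1 marks the proximal mesenchyme where molars form, and Isl1 marks the distal epithelium where incisors form. Regions that are open in 1 tissue and not in another are often distal enhancers, while promoters tend to be open in many tissues.

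Few molar-only regions touched a promoter, and those that did are shown first because they tie a region to a gene without a guess from distance. Promoter windows (250 bases before to 50 bases after a RefSeq start, GRCm38.p6) of 12 genes lay at least in part under a molar-only region and under the peaks of both molars, of 16457 autosomal genes in the table. Regions open in all 7 libraries covered windows of 8541 genes. The 12 genes were Barx1, Hmgxb4, Hrh1, Il20rb, Lgals7, Mad1l1, Naalad2, Padi1, Serpinb2, Trpv2, Tulp2 and Zc3h14. Below are 7 of the windows, 5′ to 3′ on the gene's strand: the patterning gene Barx1, then genes of surface epithelia (the galectin Lgals7, the peptidylarginine deiminase Padi1, the serine protease inhibitor Serpinb2, the cytokine receptor subunit Il20rb), then the histamine receptor Hrh1 and the cation channel Trpv2. These 7 were picked with values known, and epithelial genes were not counted over all promoters. Their grouping therefore shows no theme of the 12 genes. Capitals mark matches on either strand to the letters CAGGAAG (ETS), TGANTCA (AP-1), CCCGCCC (SP and KLF) and TGACAG (MEIS and TGIF).
Barx1: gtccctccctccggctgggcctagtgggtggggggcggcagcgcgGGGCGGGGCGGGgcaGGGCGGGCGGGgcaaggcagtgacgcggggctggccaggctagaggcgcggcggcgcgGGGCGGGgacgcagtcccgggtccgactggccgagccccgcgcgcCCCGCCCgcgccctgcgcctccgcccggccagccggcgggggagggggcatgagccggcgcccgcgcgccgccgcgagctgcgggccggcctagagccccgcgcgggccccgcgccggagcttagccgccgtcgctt
Lgals7: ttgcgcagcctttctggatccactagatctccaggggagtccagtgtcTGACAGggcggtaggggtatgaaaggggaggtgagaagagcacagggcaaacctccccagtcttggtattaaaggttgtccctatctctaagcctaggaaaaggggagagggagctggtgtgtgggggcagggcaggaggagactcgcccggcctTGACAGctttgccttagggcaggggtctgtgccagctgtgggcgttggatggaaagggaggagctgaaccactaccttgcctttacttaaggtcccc
Padi1: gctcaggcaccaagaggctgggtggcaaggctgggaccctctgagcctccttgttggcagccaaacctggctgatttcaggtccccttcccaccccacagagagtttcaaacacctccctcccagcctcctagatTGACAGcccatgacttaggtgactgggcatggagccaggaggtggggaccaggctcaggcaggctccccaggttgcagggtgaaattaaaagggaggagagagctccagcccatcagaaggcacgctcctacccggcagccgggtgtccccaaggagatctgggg
Serpinb2: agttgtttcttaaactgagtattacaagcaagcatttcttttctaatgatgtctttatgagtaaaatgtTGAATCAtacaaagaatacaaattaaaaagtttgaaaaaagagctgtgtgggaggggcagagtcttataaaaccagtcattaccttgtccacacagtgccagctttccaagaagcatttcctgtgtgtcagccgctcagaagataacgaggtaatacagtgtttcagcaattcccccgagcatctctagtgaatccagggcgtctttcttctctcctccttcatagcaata
Il20rb: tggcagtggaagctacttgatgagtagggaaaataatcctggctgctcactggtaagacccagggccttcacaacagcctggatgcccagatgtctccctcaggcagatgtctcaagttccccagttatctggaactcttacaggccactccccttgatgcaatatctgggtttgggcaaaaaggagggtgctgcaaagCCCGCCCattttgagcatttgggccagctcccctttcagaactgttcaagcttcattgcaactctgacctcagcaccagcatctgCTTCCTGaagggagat
Hrh1: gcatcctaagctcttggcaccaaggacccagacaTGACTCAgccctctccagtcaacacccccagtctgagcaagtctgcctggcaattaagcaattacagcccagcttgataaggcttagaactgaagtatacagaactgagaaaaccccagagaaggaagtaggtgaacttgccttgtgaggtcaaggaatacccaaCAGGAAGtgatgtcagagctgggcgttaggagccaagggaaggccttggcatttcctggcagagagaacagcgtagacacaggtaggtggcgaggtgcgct
Trpv2: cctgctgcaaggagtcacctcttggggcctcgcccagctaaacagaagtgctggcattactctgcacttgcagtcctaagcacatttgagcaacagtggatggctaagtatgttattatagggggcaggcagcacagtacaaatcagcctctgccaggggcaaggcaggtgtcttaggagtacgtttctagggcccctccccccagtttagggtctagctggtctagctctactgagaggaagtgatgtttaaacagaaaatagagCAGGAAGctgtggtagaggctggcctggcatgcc

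The Barx1 window (chr13:48662786-48663085, plus strand) stands apart from the other windows in composition. It was 84.7% G and C and held 50 CpG pairs and 6 matches to CCCGCCC, some of which overlap each other. Over the 12 genes the median was 52.2% G and C (range 39.0% to 84.7%) with a median of 3.5 CpG pairs (range 1 to 50). Windows under regions open in all 7 libraries had medians of 62.7% and 23 CpG pairs, and all 20085 autosomal windows had 57.0% and 14. Lgals7 (chr7:28864136-28864435, plus strand) and Padi1 (chr4:140845729-140846028, minus strand) carried TGACAG. Serpinb2 (chr1:107511260-107511559, plus strand) carried TGANTCA, and Hrh1 (chr6:114458272-114458571, plus strand) carried that motif and CAGGAAG. Il20rb (chr9:100486424-100486723, minus strand) and Trpv2 (chr11:62574236-62574535, plus strand) also carried CAGGAAG. Matches were counted over whole windows, of which 227 bases at Serpinb2 and 285 at Il20rb lay under the region. The TGANTCA match of Serpinb2 and the CAGGAAG match of Il20rb straddled the region's edge, with most letters outside it. In all, CAGGAAG was found in 6 of the 12 windows (50%) against 12.6% of all windows, TGACAG in 4 (33.3% against 18.4%), TGANTCA in 2 (16.7% against 7.06%) and CCCGCCC in 2 (16.7% against 34.5%). With 12 windows, some only in part under a region, these shares are descriptions of letters, not of bound factors.

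The other 18 motifs searched on both strands were a homeodomain core spelled TAATTA, a PITX type spelled TAATCC, PBX spelled TGATTNAT, RUNX spelled TGTGGT, TEAD spelled CATTCC, SOX spelled ACAATNG, AP-2 spelled GCCNNNGGC, LEF and TCF spelled CTTTGA, a TWIST pair spelled CATNTG, forkhead spelled GTAAACA, factors of the GATA family spelled AGATAA, a sine oculis type spelled TCANGTTNC, NFAT spelled TGGAAA, an E-box spelled CAGCTG, and by name NF1, MEF2, EBF and the CTCF core. The GATA and TEAD letters were each in 3 windows (25%, against 9.57% and 13.4% of all windows), and those of TWIST were also in 3 (25% against 33.2%). The remaining motifs were in 2 windows or fewer. A window can match several motifs. Those of MEIS and AP-1 both begin with TGA but differ further on, so no site matches both from the same base. Of 919 miRNA hairpins, 1, Mir1960, lay under a molar-only region, and 101 lay under regions open in all 7 libraries.

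The start site of Barx1 lay under a peak in both molars and, far down the list, in 1 ectoderm library. The region at chr13:48662273-48663090 is 818 bp long with its centre 0.354 kb from the start. Signal here is the caller's area under the significance curve of a peak, with no scaling between libraries, so ranks within each list are given too. The signal was 1097 in the lower molar (rank 36269 of 68877 autosomal peaks by −log10 p) and 1120 in the upper molar (rank 36143 of 67193). Ectoderm replicate 1 listed a weak peak there (signal 237, rank 80016 of 80850), and ectoderm replicate 2, both Sox2-positive libraries and the whole incisor listed none. Both molar ranks are close to the limit of 38000, so the call at Barx1 is near the edge of the rule. Of 10 regions assigned to Barx1 this was the sole molar-only one. Both molars had 2 of the 10, the whole incisor 0, the Sox2-positive libraries 4 and 1, and the ectoderm libraries 4 and 5. At the Il20rb start the peak of ectoderm replicate 1 (signal 729, rank 49473) was not weak beside the molars (774 lower, 681 upper). At Lgals7 the molars had 866 and 793, the ectoderm libraries 454 and 257 and the whole incisor 378. At Hrh1 the molars had 794 and 511 and the whole incisor 479.

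The widest member lay beside Shh, the hedgehog ligand made by dental epithelium and enamel knots. The region chr5:28454105-28456697 was 2593 bp long, and its edge was 0.142 kb from the gene body. Whether that end of Shh is the start of the gene was not determined here. Its signal was 2262 in the lower molar and 3520 in the upper molar. None of the other 5 lists held a peak there at any rank. By −log10 p it was rank 35666 in the lower and 24743 in the upper molar, so a broad peak with a large area had a modest p-value. A second Shh member, chr5:28451188-28451764, had a signal of 669 in the lower molar, 761 in the upper molar and 456 in ectoderm replicate 1, where its rank of 42633 put it below the limit. Of the 7 regions assigned to Shh, the lower molar had 6, the upper molar 5, the ectoderm libraries 3 and 4, each Sox2-positive library 1 and the whole incisor 0.

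Of the 3 stretches with 5 members, the shortest was in the same domain, between Shh and Rnf32. Beyond Rnf32 lies Lmbr1, an intron of which is known to hold a distant Shh enhancer. From 10 kb beyond Shh to the far end of Lmbr1 (chr5:28446840-29378421, 0.932 Mb) there were 37 regions. Of these, 9 were molar-only (24.3%, against 4.83% of all regions) and 0 were open in the whole incisor alone (4.36% of all regions). At that general share, a 0 among 37 regions says little. Over these 37 regions the lower molar had 28 and the upper molar 27, against 7 in the whole incisor, 14 and 11 in the Sox2-positive libraries, and 16 and 14 in the ectoderm. A run of 5 members within 49.2 kb (chr5:28816239-28865462, 5 of 8 regions) began 349 kb from Shh and contained no gene. The best ranked of the 5 was chr5:28831947-28832938, with a signal of 1718 in the lower molar and 1577 in the upper molar, no peak elsewhere, and ranks of 10904 and 10901. Of the other four, 1 had a lower-ranked peak in ectoderm replicate 1 (signal 360) and 2 had one in the whole incisor (214 and 209). This domain was described because of its run of 5, so its share is no test of Shh.

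Across all members, more were absent from the other lists altogether than were merely below the limit there. At 2050 members (55.0%, Wilson 95% interval 53.4 to 56.6) none of the other 5 lists held a peak at any rank. A lower-ranked peak was present in the whole incisor at 1301 members (34.9%, 33.4 to 36.4). It was present in ectoderm replicate 1 at 524 (14.1%) and in ectoderm replicate 2 at 133 (3.57%). In Sox2-positive replicate 1 it was present at 166 (4.45%) and in replicate 2 at 6 (0.161%). The lists differed in length beyond the limit: they held 24074, 42850, 11719, 3829 and 326 autosomal peaks below rank 38000 in that order. The whole incisor had the highest share although ectoderm replicate 1 had the longer tail. Absence from Sox2-positive replicate 2 carries little weight beyond the rule itself, because its list ends shortly after the limit. All intervals here cover the counting of regions only.

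**Figure D1:**
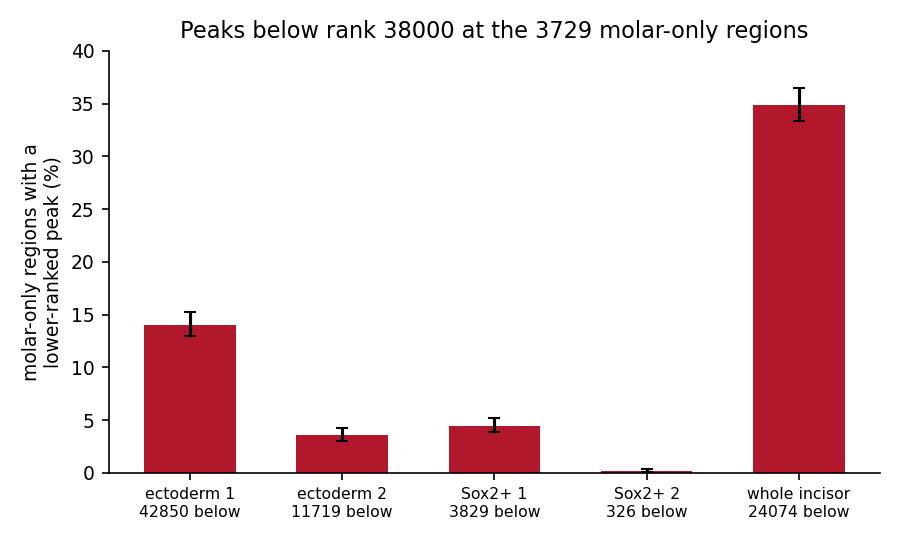
Share of the 3729 molar-only regions (%) that lie under a deposited peak ranked below 38000, for each of the other 5 libraries; bars are shares, whiskers Wilson 95% intervals, and the number under each name is how many autosomal peaks that list holds below the limit. The whole incisor stands highest at 34.9% and Sox2-positive replicate 2, with 326 such peaks, lowest at 0.161%.

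The same could be asked of the incisor. Of 3364 regions open in the whole incisor alone (4.36% of all regions), 53.1% had a lower-ranked peak in the lower molar and 34.1% in the upper molar. The tails of the molar lists are longer than that of the incisor list, so these shares are not directly comparable. At 1306 members (35.0%) exactly 1 other list held a lower-ranked peak, and at 373 2 or more did.

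Molar-only regions were weaker than regions open everywhere. Their median signal was 686 in the lower molar (range 258 to 2807) and 698 in the upper molar (287 to 3520). Regions open in all 7 libraries had medians of 2044 and 2055, and regions open in the 3 whole teeth only had 855 and 768. Regions shared by ectoderm and molars only were no stronger than members, with 651 and 669. By −log10 p the median rank of a member was 26321 in the lower and 26109 in the upper molar. Only 42 members (1.13%) were among the first 10000 peaks of the lower molar and 63 (1.69%) among those of the upper molar, against 53.6% and 53.8% of regions open in all 7 libraries. Peaks were narrow, with medians of 435 and 470 bp against 1074 and 1078 bp. In regions shared by ectoderm and molars only they were 447 and 475 bp.

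The summits of the molar peaks lay close together, which is partly built in because the rule merges overlapping peaks. They were a median of 12 bp apart (quartiles 3 and 36 bp), and 3524 members (94.5%) had summits within 100 bp of each other. The share was alike in other sets. It was 94.7% for regions of the 3 whole teeth only and 94.4% for those of ectoderm and molars only. For regions open in all 7 libraries it was 91.8%. In signal rank the teeth were within 1.5 times of each other at 3544 members. The upper molar ranked better by more than that at 131 members and the lower molar at 54. Among the 2050 members with no peak elsewhere at any rank, these numbers were 89 and 14. Spearman's rank correlation of the signals was 0.789 across members and 0.971 across regions open in all 7 libraries. It is given as a description because both values were required to pass the limit. At the region near Lypd6b (chr2:49844394-49846346) the upper molar had a signal of 2459 and the lower molar 1196. At Slc22a23, a solute carrier gene (chr13:34342085-34343098), the lower molar had 1275 and the upper molar 461. No replicate of either tooth is at hand to say how much of such gaps is spread between libraries.

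**Figure D2:**
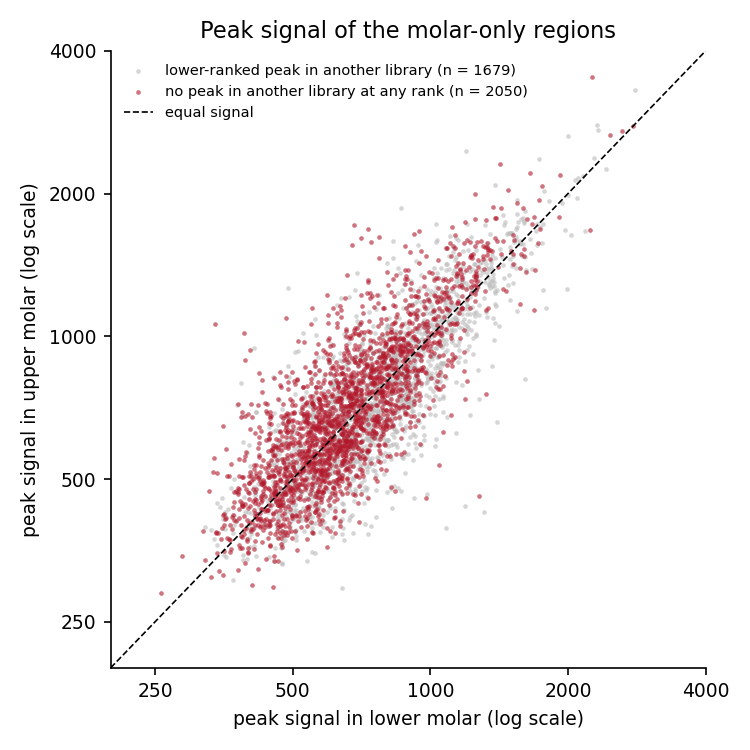
Peak signal of each molar-only region in the lower molar (x, log scale) and the upper molar (y, log scale); each point is a region, red where no other list holds a peak at any rank (2050) and grey where one does (1679), and the dashed line marks equal signal. Points follow the line over its whole length, and the Shh region is the highest red point, at 3520 in the upper molar.

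The 10 members with the best signal rank in both teeth lay in or beside genes of varied function. Signals are given as lower molar, then upper molar. Grm7, a glutamate receptor, had 2807 and 3311. Dlc1, a GTPase-activating protein, had 2767 and 2780, and Frem2, a basement membrane protein, had 2618 and 2715. Insyn1 had 2472 and 2656. At Dlc1, Frem2 and Insyn1 no other list held a peak. Cacna1e, a calcium channel subunit, had 2330 and 2718, Setd3, an actin methyltransferase, 2313 and 2788, and Wdfy4, known from antigen presentation by dendritic cells, 2279 and 2374. The Shh region came eighth. Sgk3, a protein kinase, had 2423 and 2250, and the region assigned to Ezh1, a catalytic subunit of Polycomb complex PRC2, had 2157 and 2180. At Grm7, Cacna1e, Setd3, Wdfy4, Sgk3 and Ezh1 the whole incisor held a lower-ranked peak, with signals from 269 at Cacna1e to 589 at Sgk3. No member of the 10 had a peak in a Sox2-positive library, and Grm7 alone had one in ectoderm (217 in replicate 1).

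Besides Shh and Insyn1 (2066 bp), the widest members were at Krt17, Lypd6b and Krt5. Krt5 and Krt17 are keratins of basal and reactive epithelial cells. The Krt17 region (chr11:100254127-100256080, 1954 bp) had a signal of 2231 in the lower and 1678 in the upper molar. The Krt5 region (chr15:101705874-101707738, 1865 bp) had 1515 and 1635. Its centre was 0.263 kb from an end of the gene but 6.10 kb from its start. Neither the Krt17 nor the Krt5 region had a peak in any other list. Other regions of Krt5 were open elsewhere: of 5 assigned regions, both molars had all 5, the whole incisor 2, the Sox2-positive libraries 1 and 3 and the ectoderm libraries 3 and 2. Over all 49 keratin genes, a list drawn up after values were seen, 8 of 100 assigned regions were molar-only (8%, 4.11 to 15.0, an interval that includes the 4.53% of all assigned regions) and 0 were open in the whole incisor alone. They were assigned to Krt23, Krt17, Krt42 (2), Krt80 (2), Krt90 and Krt5. Keratin genes lie in clusters, so neighbouring members share a locus and some assignments could fall to the next gene.

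**Figure D3:**
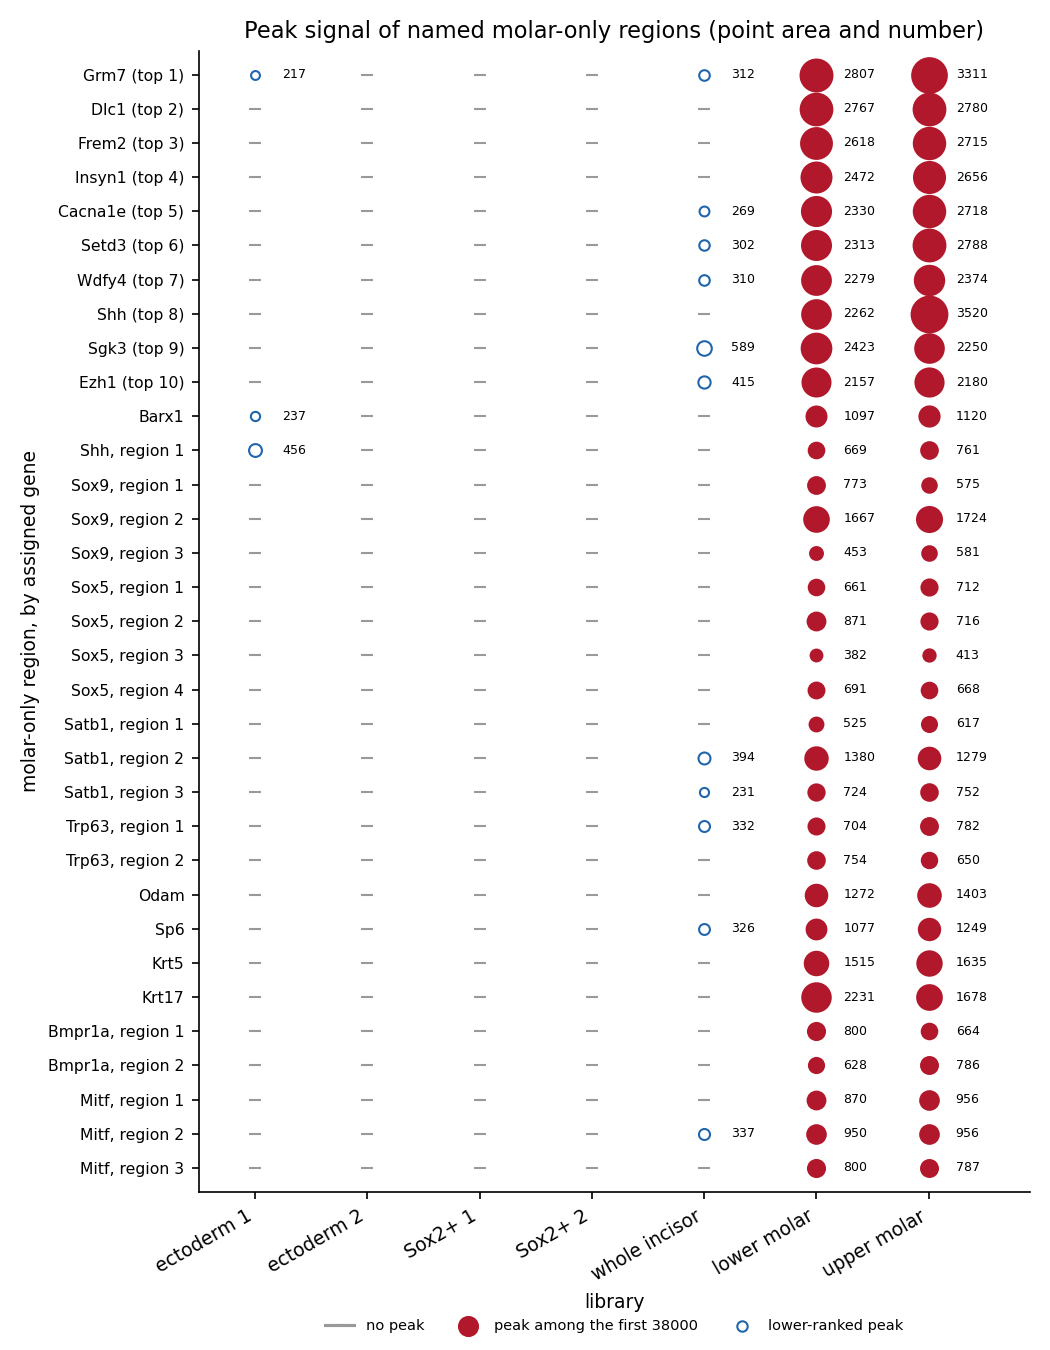
Signal of the deposited peak in each library (columns) at named molar-only regions (rows, by assigned gene): the 10 best by signal rank, then regions of patterning, epithelial and pathway genes. Point area and the printed number give the signal, filled red points are peaks among the first 38000 of a list, open blue points are lower-ranked peaks, and a dash is no peak; most lower-ranked peaks are in the whole incisor and none is in a Sox2-positive library.

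Molar-only regions were distal. Just 52 (1.39%, 1.07 to 1.82) had their centre within 1 kb of a gene start, against 64.1% of regions open in all 7 libraries. That was a difference of -62.7 points (Newcombe 95% interval -63.5 to -61.8), lower on 19 of 19 chromosomes. The share was 17.3% for all regions and 6.9% for regions open in ectoderm alone. Regions open in all 7 libraries thus lay near starts far more often than regions in general. Against regions open in the whole incisor alone (2.17%) the difference was -0.776 points (-1.42 to -0.160), lower on 11 of 19 chromosomes. Its interval reached past 0 when peaks were ranked by signal (-0.548), when a window of 2.5 kb was used (-0.317), when chromosomes X and Y were included (-0.568) or without ectoderm replicate 2 (-0.582). Against regions of the 3 whole teeth only (1.76%) the difference was -0.366 points, with an interval that included 0 (-1.27 to 0.351). Against regions shared by ectoderm and molars only (5.72%) it was -4.33 points (-6.05 to -2.94). For genes not in the promoter table either gene end stood for the start, and with listed starts alone the count was 30 (0.805%).

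More molar-only than whole-incisor regions lay far from genes. Of the members, 582 (15.6%, 14.5 to 16.8) lay more than 100 kb from any protein-coding gene. The share was 11.1% for regions open in the whole incisor alone, a difference of 4.55 points (2.97 to 6.12), with a higher molar-only share on 17 of 19 chromosomes. It was 11.7% for regions of the 3 whole teeth only (difference 3.87 points, 1.73 to 5.87) and 11.0% for regions shared by ectoderm and molars only (4.59 points, 2.14 to 6.80). It was 1.84% for regions open in all 7 libraries and 9.96% for all regions. Regions open in ectoderm alone came close to the members, at 14.5% (13.8 to 15.2), so a large distance was not particular to molars. The median distance to a gene start was 43.5 kb for members, 33.9 kb for whole-incisor regions and 33.1 kb for whole-tooth regions. Inside genes lay 1978 members (53.0%), against 56.5% of whole-incisor regions (difference -3.41 points, -5.72 to -1.09, lower on 15 of 19 chromosomes). Neighbouring regions are not independent, so these intervals are narrower than the data warrant.

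**Figure D4:**
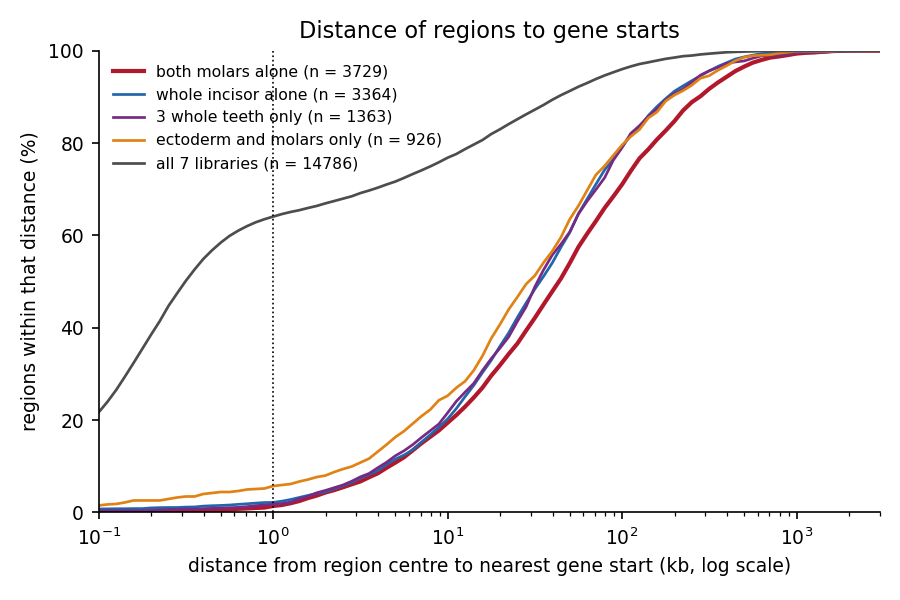
Cumulative share of regions (%) whose centre lies within a given distance (kb, log scale) of the nearest gene start, for 5 sets of regions; the dotted line marks 1 kb. The molar-only curve (red) runs lowest beyond 10 kb and reaches its middle at 43.5 kb, while 64.1% of the regions open in all 7 libraries lie within 1 kb.

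Members occurred on every autosome, from 3.73% of the regions on chromosome 11 to 6.07% on chromosome 18. Within 25 kb of another member lay 633 (17%). A member was that close to 16.3% of the regions of the 3 whole teeth only, 12% of whole-incisor regions and 11.8% of all regions. Whole-incisor regions lay that close to another of their own kind at 18.7%. Near a region open in all 7 libraries lay 32.9% of members against 39.5% of whole-incisor regions. When members less than 50 kb apart were joined, 2688 stood alone, 375 stretches held 2, 80 held 3, 9 held 4 and 3 held 5. In stretches of 2 or more lay 27.9% of members and 29.6% of whole-incisor regions.

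The next stretches by number of members, and then by length, were at other loci. At Rassf2 and Slc23a2, a vitamin C transporter gene (chr2:132024783-132097883), 5 of 9 regions were molar-only, with signals from 600 to 1144 in the lower and 490 to 1089 in the upper molar. A gene-free stretch 129 kb from Kif26a and 103 kb from A530016L24Rik (chr12:112310549-112386292) also had 5 of 9. Beside Sema3e, a semaphorin guidance ligand, 4 of 6 regions in chr5:13971588-14005170 were molar-only, the nearest 20.1 kb from the gene, and 3 of the 4 had no peak in any other list. At Fryl (chr5:73221838-73272898) 4 of 5 were molar-only.

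A gene was assigned to a region when it contained the centre, and otherwise when it was the nearest within 100 kb. By this rule 3147 members (4.53% of 69454 assigned regions) fell to 2338 genes. Of these, 1772 had 1 member, 401 had 2 and 165 had 3 or more. Camk1d, a calcium-dependent kinase, had 7 of 23 regions. Dlg2, a synaptic scaffold, had 7 of 42, and Tenm4, a teneurin, had 7 of 69, all 7 with no peak in any other list. Sema5a, a semaphorin, had 6 of 34 and Macrod2 6 of 45. The adaptor gene Sh3d19 had 5 of 14, Fryl 5 of 15, the TGF-beta binding protein Ltbp1 5 of 22, the splicing factor Rbfox2 5 of 27 and the polarity gene Pard3 5 of 33. These genes are long, from 160 kb for Sh3d19 to 1998 kb for Macrod2, and counts were not adjusted for length. Il20rb, named after its values were seen, is 28.8 kb long and had 4 of 6.

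Gene groups were then set beside the 4.53% over all assigned regions. Most of the 21 lists were near or below it. Enamel organ genes had 9 of 94 regions (9.57%, 5.12 to 17.2), the sole list whose interval lay above 4.53%, and the incisor-alone count was 4. Under the alternatives tried it was between 8.16% and 12%. Its interval included the share of all assigned regions with all deposited peaks (8.16%, against 5.86%), with the first 19000 (10.2%, against 5.02%) and without Sox2-positive replicate 1 (10.2%, against 5.84%). Of the 9, 3 had no peak in any other list (3.19% of the list's regions, against 2.42% of all assigned regions). The 9 were 3 at Satb1 and 2 at Trp63, which encode transcription regulators of epithelia, and 1 each at Sp6, Odam, Amtn and Itgb6. Odam and Amtn encode proteins of the junction between ameloblasts and maturing enamel. Each had a sole assigned region, open in the molars alone. The Odam region (chr5:87888597-87889464) had a signal of 1272 in the lower and 1403 in the upper molar with no peak elsewhere. The Amtn region (chr5:88395229-88395629) had 574 and 485, with lower-ranked peaks of 525 in ectoderm replicate 1 and 379 in the whole incisor. Itgb6, an integrin subunit of ameloblasts, had 739 and 723, and Sp6, a factor needed for enamel, 1077 and 1249. Ambn, for the enamel matrix protein ameloblastin, had no member: of its 3 regions both molars had 2 and the whole incisor all 3.

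Cartilage genes had 7 of 88 (7.95%, 3.91 to 15.5) against 1 in the whole incisor, and all 7 lacked a peak elsewhere at any rank. They belonged to only Sox9 (3 of 7 regions) and Sox5 (4 of 28), transcription factors that also act outside cartilage, including in epithelia and neural crest derivatives. The best ranked Sox9 member, chr11:112798372-112799299, lay 11.1 kb from a gene end with signals of 1667 and 1724. The other Sox9 members had 773 and 575, and 453 and 581. The 4 at Sox5 ranged from 382 to 871 in the lower and from 413 to 716 in the upper molar. The other cartilage genes had 0 molar-only regions, and with the first 19000 peaks of each list the share of the list was 4.65%.

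Signals of the enamel knot and their pathways were mixed. The enamel knot list had 5 of 128 (3.91%) and 0 open in the whole incisor alone. Those 5 were 2 at Shh and 1 each at Bmp2, Bmp7 and Wnt10a. The BMP and activin pathway had 12 of 263 (4.56%) against 4 in the whole incisor. Among its ligands were Bmp2 (839 and 975), Bmp4 (1055 and 1050) and Bmp7 (443 and 476). Its receptors had 5, at Bmpr1a (2), Acvr2a (2) and Acvr1. The signal transducer Smad1 had 2, and the inhibitors Smad6 and Bambi 1 each. The Acvr2a region nearest its start, 2.51 kb away, had signals of 1199 and 1195. The hedgehog pathway had 8 of 201 (3.98%) against 12 in the whole incisor: 2 at the ligand Shh, 2 at the antagonist Hhip, and 1 each at the effectors Gli2 and Gli3, the inhibitor Sufu and the co-receptor Boc. The WNT pathway had 5 of 281 (1.78%, 0.762 to 4.10) against 13, and its interval lay below 4.53%. The interval included the share of all assigned regions with the first 19000 peaks (3.88%), with X and Y (2.19%), without ectoderm replicate 1 (3.04%) or 2 (2.52%) and with assignment within 25 kb (1.68%). The FGF pathway had 3 of 153 against 3, with 2 of its members at the receptor Fgfr2.

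**Figure D5:**
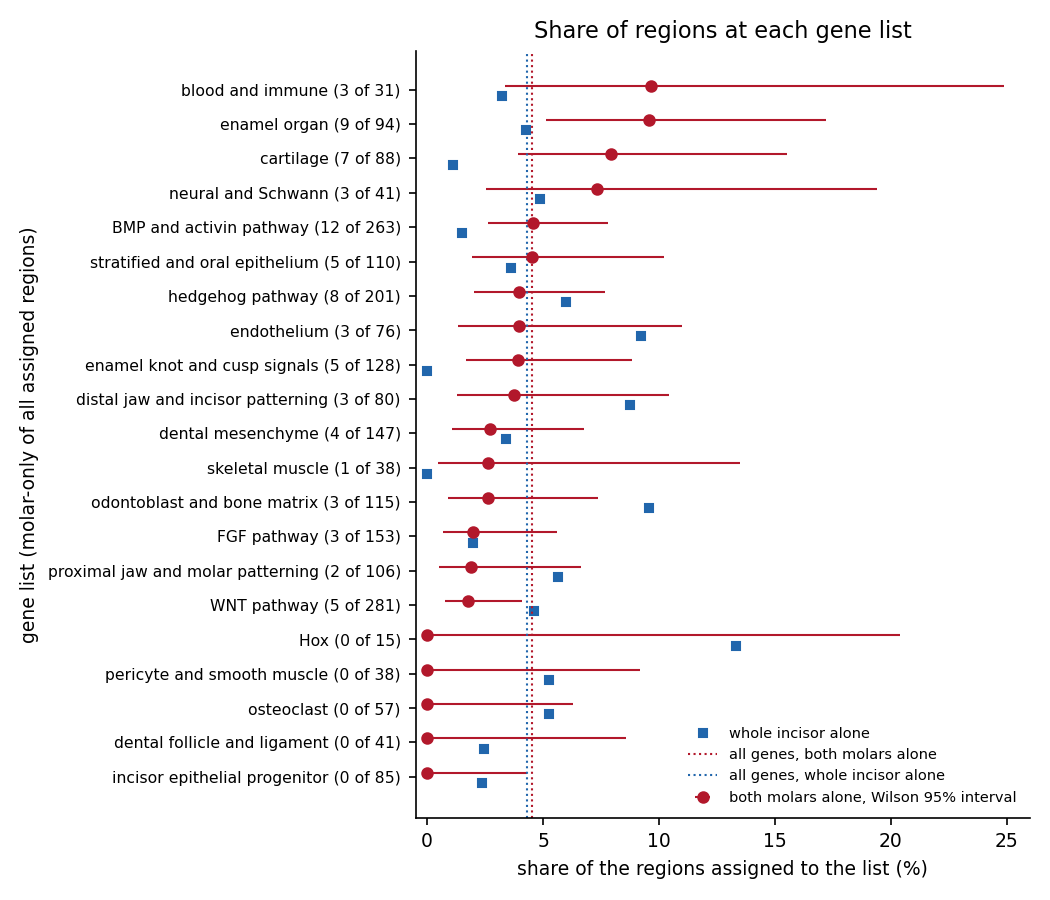
Share (%) of the regions assigned to each of 21 gene lists that were open in both molars alone (red, Wilson 95% interval) or in the whole incisor alone (blue squares); dotted lines are the shares over all assigned regions, 4.53% and 4.31%. The interval of enamel organ genes lies above the red line and those of the WNT and incisor epithelial progenitor lists below it, and each of these 3 positions is lost under some of the alternatives tried.

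Counts for jaw patterning genes were small and did not set them apart from all assigned regions. The proximal jaw and molar list had 2 of 106 (1.89%, 0.519 to 6.62), at Barx1 and Dlx5, against 6 in the whole incisor. The distal jaw and incisor list had 3 of 80 (3.75%, 1.28 to 10.5) against 7. Both intervals included the share of all assigned regions. Isl1 (6 regions), Msx1 (10), Pax9 (5) and Sox2 (7) had no member. These totals are too small to read anything from an absence. The incisor epithelial progenitor list had 0 of 85, and a count of 0 allows a share of up to 3.53%. It had members under other settings, with 2.80% of its regions for all deposited peaks, 4% for the first 19000 and 2.25% when ranked by signal, and its interval then included the share of all assigned regions. Dental mesenchyme genes had 4 of 147 (2.72%) against 5, with 2 of them at Pdgfra, a growth factor receptor of mesenchyme. Odontoblast and bone matrix genes had 3 (2.61% of their regions) against 11. Stratified and oral epithelium genes had 5 of 110 (4.55%) against 4, at Cdh1, Dsg3, Grhl2, Krt5 and Tfap2a.

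Markers of other cell types that a whole tooth can hold gave small counts. Endothelial genes had 3 of 76 (3.95%), 2 of them at Pecam1, against 7 in the whole incisor. Blood and immune genes had 3 of 31 (9.68%, 3.35 to 24.9), 2 at Ptprc and 1 at Cd3e, against 1. Neural and Schwann genes had 3 of 41 (7.32%), all at Mitf, which also acts in pigment cells, against 2. Skeletal muscle genes had 1 of 38, at Ttn, against 0. Dental follicle (0 of 41, up to 7.32%), osteoclast (0 of 57, up to 5.26%), pericyte (0 of 38, up to 7.89%) and Hox genes (0 of 15, up to 20.0%) had none. Of 14 enamel organ genes, 11 had a region in each molar and 9 in the whole incisor. The ectoderm libraries had 10 and 11, and each Sox2-positive library 8. Odontoblast and bone genes had one at 12 and 11 of 15 in the molars and 14 in the whole incisor. For these genes the ectoderm libraries had 10 and 11, and the Sox2-positive libraries 11 and 14. Blood and immune genes had one at 5 and 4 of 13 in the molars and 7 in the whole incisor. Each ectoderm library had 6, and the Sox2-positive libraries 4 and 6. Such counts are alike across tissues, so they do not check the tooth labels. The part of cell makeup in the molar-only set was not tested.

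The limit of 38000 peaks cuts through a continuum. The member nearest to it in the lower molar, near Rap2b (chr3:61442441-61442753), had signals of 376 and 472. The member nearest to it in the upper molar, near Stk24 (chr14:121391797-121392189), had 471 and 375. Just outside were a region near Myod1 (chr7:46379045-46379340), at rank 38001 in the lower molar with 372 and 455, and a region in Boll (chr1:55287902-55288243), at rank 38023 in the upper molar with 427 and 370.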

How the data were processed

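Per the submitters' processing notes, FastQC, Trimmomatic, Bowtie2, deepTools and Genrich were used on build mm10; versions, options and read filters are not given in the sources used here. The authors deposited 1 peak list per library, with a signal per peak (area under the significance curve in Genrich's standard output, at least 200 in every list), a −log10 p and a summit position. No read counts are in the lists, so the depth of each library is unknown. Lists held 39017 to 82461 deposited peaks. The other deposited fields were not used.

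Peaks were ranked by the deposited −log10 p with ties by signal, and the first 38000 on chromosomes 1 to 19 of each list were merged where they shared at least 1 bp. Genes (21887 protein-coding) and promoter windows came from RefSeq tables of GRCm38.p6. The start was the listed one for 17492 genes and either gene end for the rest, so for the rest a 3′ end may stand for a start. Of 297 list genes 1 was not matched. Named regions are the 10 best by signal rank in both molars, the 5 widest, the 5 stretches with most members, the 10 genes with most members, list genes with 2 or more members, and 8 preset genes, some of which are not reported here; other single list members, promoter genes, keratins and Il20rb were added with values known. The members and lists were chosen with earlier results of these data known. Shares have Wilson and differences Newcombe 95% intervals; no p-value was computed, because regions are not replicates. Where a share is 0, the limit is 3 regions of the total. Scripts (Python 3.11.15, pandas 2.3.3, numpy 2.4.6) were tested on simulated peak lists. Alternatives changed list length, ranking, overlap, peak extent, chromosomes, start window, assignment distance and each replicate. Motifs in distal regions were not analysed here because no genome was used.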

Additional observations from a re-analysis of the deposited data

Results flagged for a closer look

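Outside the chromosomes the rule uses, 37 regions on chromosome X lay under a peak in both molars and in no other library when X and Y entered the ranking, of 3652 such regions on all chromosomes. Chromosome Y had 0. The sex of the animals is not given in the labels.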

How the results depend on the processing

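The number of molar-only regions was 8056 with all deposited peaks and 1984 with the first 19000, and 3846 to 4627 when 1 replicate was left out, which by construction lets more regions qualify. The share near a gene start was 2.49% with 200 bp summit windows, 0.59% and 5.39% with start windows of 500 and 2500 bp, and 0.805% with listed starts only, an alternative added after seeing the data. Its difference from whole-incisor regions had an interval reaching past 0 when ranked by signal (-0.548 points), with X and Y (-0.568) with 2500 bp (-0.317) and without ectoderm replicate 2 (-0.582), and ranged from -1.13 to -0.582 with a replicate left out; the cause was not tested. The share over 100 kb from any gene was 17.3% with all peaks and 14.1% with the first 19000, and its difference from whole-incisor regions stayed positive with an interval above 0 under every alternative tried, from 3.66 to 5.85 points. The molar-only percent of assigned regions was 5.86 with all peaks, 5.02 with the first 19000, 4.31 ranked by signal, 5.18 with 50% cover, 4.33 with summit windows, 3.58 with assignment within 25 kb, and 4.89 to 5.84 with a replicate left out. Lower-ranked peaks that cover 50% of a member were found at 36.5%. Of 231 values for gene lists 5 moved, and of 341 for named genes 60 did. A list value moved when it left the interval of the main setting. Those intervals are wide for small lists, so a value that did not move is weak evidence of stability. A gene count moved when it changed by more than a set ratio. Reversal was defined for differences between sets of regions only, and no difference reversed. No paired analysis was possible because the values are peak lists with no fit between groups. Motif shares over distal regions were not run. Unknown depth limits every absence of a peak.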
